A study of Mus musculus with 6 samples.

Results

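The 33 genes described here encode proteins of the lysosome and of autophagy. They were taken as a list of named genes, and all 33 were present among the 21485 genes counted in every sample. The list holds 3 lysosomal membrane glycoproteins, 10 cathepsins, 4 glycosidases, 3 genes of lipid handling, 5 genes of the ATG8 family, the cargo receptor Sqstm1, 5 genes of the core autophagy machinery, the transcription factor Tfeb and the lysosomal channel Mcoln1. The cells were mouse muscle-derived stem/progenitor cells (MDSPCs), slowly adhering cells enriched from dissociated skeletal muscle by serial preplating. Young mice gave 3 populations and old mice gave 3, all kept proliferating in one serum-rich medium and profiled in droplets by sequencing the 3′ ends of RNA from single cells. A population was 1 sample and carried 1 of the replicate numbers 1 to 3 within its group. No treatment or genetic change was given for either group. The ages, sex and strain of the mice, the number of animals behind a population and the number of passages are not given in the sources used here.

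Lysosomes are acidic organelles in which hydrolases break down proteins, glycans and lipids. Newly made hydrolases are sorted to them with mannose-6-phosphate tags, and a proton pump, the V-ATPase, keeps the interior acidic. In autophagy a double membrane grows around cytoplasmic cargo and the closed vesicle fuses with a lysosome. The proteins of the ATG8 family (LC3 and GABARAP proteins) are attached to that membrane and bind cargo receptors such as p62, the product of Sqstm1. TFEB and its relatives TFE3 and MITF bind CLEAR elements, short motifs in the promoters of many lysosomal genes. In skeletal muscle, autophagy is known for its part in fiber maintenance and in keeping muscle stem cells quiescent.

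The promoters of the members were read first, because TFEB is a member and lysosomal genes are its textbook targets. RefSeq promoter sequences (build GRCm38.p6, 250 bases before to 50 bases after the start of transcription) were matched for 27 of the 33 members. Npc1, Atg12, Becn1, Map1lc3a, Ctsb and Ctsh were not matched. The motif GTCACGTG, 8 bases of the CLEAR element, was searched on both strands. The motif was found in 6 of the 27 members (22.2%), compared with 2.25% of the 32851 promoters in the table and 2.55% of the 27025 genes. CLEAR elements are known from promoters of lysosomal genes, so a higher share in this list is no finding of these data. The last 6 bases of the motif, CACGTG, occur wherever the longer motif does and were found in 10 of 27 members (37.0%), compared with 7.15% of promoters and 8.09% of genes. The 6 members with the longer motif follow, 5′ to 3′ on the strand of the gene, with the motif in capitals, which reads CACGTGAC where it lies on the opposite strand.
Lamp1 (chr8:13159107-13159166, plus strand): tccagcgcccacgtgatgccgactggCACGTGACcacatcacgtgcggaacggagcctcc
Ctsa (chr2:164833733-164833792, plus strand): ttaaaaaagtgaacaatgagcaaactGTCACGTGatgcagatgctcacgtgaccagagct
Ctsd (chr7:142387892-142387951, minus strand): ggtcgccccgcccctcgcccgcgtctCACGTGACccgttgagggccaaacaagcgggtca
Glb1 (chr9:114401002-114401061, plus strand): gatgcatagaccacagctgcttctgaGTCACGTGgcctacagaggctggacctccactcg
Mcoln1 (chr8:3500420-3500479, plus strand): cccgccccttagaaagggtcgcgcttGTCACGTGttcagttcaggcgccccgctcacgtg
Atg7 (chr6:114670936-114670995, plus strand): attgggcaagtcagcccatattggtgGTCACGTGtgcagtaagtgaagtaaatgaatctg

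In these windows the first base of the motif lay 28 bases before the RefSeq start in Lamp1, 14 in Ctsa, 98 in Ctsd, 50 in Glb1, 73 in Mcoln1 and 134 in Atg7. Ctsa, Ctsd and Mcoln1 each held a second copy of the motif in the same promoter. The RefSeq start lay inside the gene as annotated by GENCODE for Atg7 (27999 bases from its beginning), Ctsa (900 bases), Ctsd (211), Mcoln1 (62) and Glb1 (2). For Ctsa the table also holds an upstream promoter, in which the motif was not found. A match in these letters is a description of the sequence, and binding was not measured. Of the 6 genes with the motif, 5 had their highest level in young population 1, as had 9 of the 21 matched members without it. Over all genes tested it was 16.4%. Among the 5, Atg7 led there by 1.10-fold and Glb1 by 1.19-fold. Without the scaling between samples described below, Atg7 was highest in old population 1 and Glb1 in old population 2. The members highest in young population 1 then numbered 12 of 33, against 18 with it. A link between motif and level was not tested.

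The deposited matrices held 62849 barcodes, of which 61673 were kept as cells, between 8674 and 12541 per population. Their median depth ranged from 13001 to 19951 unique molecular identifiers (UMIs, tags that let each captured RNA molecule be counted once). Young population 1 and old population 1 were counted on a shorter gene list than the other 4 samples, so the list was a term of the model for age. Of the kept cells, 877 (1.42%) had a barcode sequence that occurred in more than 1 library, 437 sequences in all. The summed level of 12 macrophage markers was 32.2, 11.1 and 25.8 CPM (counts scaled to a common library size) in young populations 1, 2 and 3 and 28.7, 14.9 and 7.60 CPM in old populations 1, 2 and 3. Most of it came from Cd14, while Tyrobp and C1qb were at 0 in all 6 samples and Ptprc, Adgre1 and C1qa at or under 0.05 CPM. The 6 endothelial markers summed to between 0.555 and 1.24 CPM. The 8 fibro-adipogenic markers summed to between 186 and 436 CPM, mainly Gsn and Col3a1, with Lum at 0 in 5 samples. In young population 3 their sum exceeded that of the myogenic markers, at 265 against 221 CPM. Gsn at 151 CPM and Col3a1 at 109 CPM made up nearly all of it. The other fibro-adipogenic markers lay between 0 and 4.30 CPM there, with Pdgfra at 0.342 CPM. The 10 myogenic markers differed most, at 443.7, 2467 and 221 CPM among the young populations against 245, 1699 and 4661 CPM among the old. Pax7, a marker of muscle stem cells, was at 0.0245 CPM in young population 3, and Myf5, another early myogenic factor, at 0.00883 CPM in young population 1.

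Levels below are sums over all kept cells of a population in CPM, scaled by the trimmed mean of M values (TMM). Because 1 UMI stands for 1 molecule whatever its length, levels of different genes can be set side by side, though capture differs between transcripts. Values are given in the order young 1, 2 and 3, then old 1, 2 and 3. The 33 members spanned a wide range, from a mean of 2770 CPM for Cd63 to 0.214 CPM for Ctss.

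Cd63, a tetraspanin of late endosomes and exosomes, was the most abundant member. Its levels were 2190, 3521 and 2660 CPM among the young populations against 1636, 2911 and 3700 CPM among the old, so each group held both high and low samples. Lamp1, a heavily glycosylated protein that lines the lysosomal membrane, was at 758, 289 and 463 CPM among the young populations against 337, 425 and 298 CPM among the old. Lamp2, its relative with a part in chaperone-mediated autophagy, was at 196, 114 and 135 CPM and 118, 325 and 115 CPM, with old population 2 highest. Lamp2 lies on the X chromosome, where the median of 261 genes was 0.87 (log2) higher in old population 2 than the median of the other 5 samples. Divided by that shift, Lamp2 was at 178.5 CPM in old population 2 and highest in young population 1, at 200.2 CPM.

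Among the cathepsins, lysosomal proteases, Ctsl led. Ctsl, a cysteine protease, was at 1785, 1569 and 668 CPM among the young populations against 799, 840 and 572 CPM among the old. Young populations 1 and 2 stood above all others, and young population 3 fell among the old samples. Ctsd, the main aspartic protease of the lysosome, was at 606, 232 and 163 CPM and 225, 487 and 309 CPM, highest in young population 1 and old population 2. Ctsb, another cysteine protease, was at 593, 230 and 160 CPM and 272, 239 and 192 CPM. Ctsz, Ctsa and Ctsh averaged 87.5, 81.6 and 58.8 CPM. Ctsf, Ctsc, Ctsk and Ctss averaged 4.17, 2.23, 0.528 and 0.214 CPM, and Ctss, a protease of antigen-presenting cells, stayed between 0.140 and 0.376 CPM, from 17 to 63 UMIs per population.

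The genes of lipid handling were led by Npc2, a soluble carrier of cholesterol in the lysosome. It was at 692, 264 and 448 CPM among the young populations against 306, 380 and 359 CPM among the old. Psap, the precursor of the saposins that help break down sphingolipids, averaged 276 CPM. Npc1, the membrane protein that takes cholesterol from NPC2, averaged 21.4 CPM. The glycosidases Hexa (a subunit of hexosaminidase A), Gusb (beta-glucuronidase), Gaa (acid alpha-glucosidase, which breaks down glycogen) and Glb1 (lysosomal beta-galactosidase, the enzyme behind the usual senescence stain) averaged 69.4, 47.9, 38.6 and 27.9 CPM. Glb1 ranged from 22.5 to 39.0 CPM among the young populations against from 20.2 to 32.8 CPM in the old populations, and the groups overlapped.

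In the ATG8 family, Gabarap was the most abundant, at 1234, 574 and 801 CPM among the young populations against 651, 1360 and 808 CPM among the old. Map1lc3b, which encodes the LC3B protein used to count autophagosomes, was at 806, 332 and 427 CPM and 346, 408 and 369 CPM. Apart from young population 1, its samples lay close together. Gabarapl2 was at 263, 210 and 160 CPM and 139, 230 and 283 CPM. Map1lc3a, which encodes LC3A, was at 172, 215 and 108 CPM and 56.3, 247 and 208 CPM. Its lowest sample was old population 1, followed by young population 3, which were also the 2 samples with the largest shares of cells scored in S or G2/M phase, 79.5% and 86.0%. In the cells not so scored, old population 1 held 76.3 CPM, young population 3 155 CPM and the other 4 between 212 and 329 CPM. The part of the scored share in these levels was not tested. Gabarapl1 was the scarcest of the family, at 32.8, 12.6 and 20.8 CPM and 24.3, 19.5 and 12.7 CPM.

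Sqstm1 was at 600, 165 and 109 CPM among the young populations against 347, 436 and 158 CPM among the old, a range within each group larger than the gap between the group means. Atg5 and Atg12, whose products form the conjugate that helps attach ATG8 proteins to membranes, and Atg7, the enzyme that activates both systems, averaged 43.7, 30.1 and 9.78 CPM. Becn1, a subunit of the lipid kinase complex that starts vesicle growth, averaged 46.2 CPM, and Ulk1, the kinase that starts autophagy, 10.9 CPM. Atg5 varied least of all members, between 39.96 and 49.5 CPM in all 6 populations. Mcoln1, a calcium channel of the lysosome, averaged 9.35 CPM and Tfeb 2.85 CPM.

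**Figure D1:**
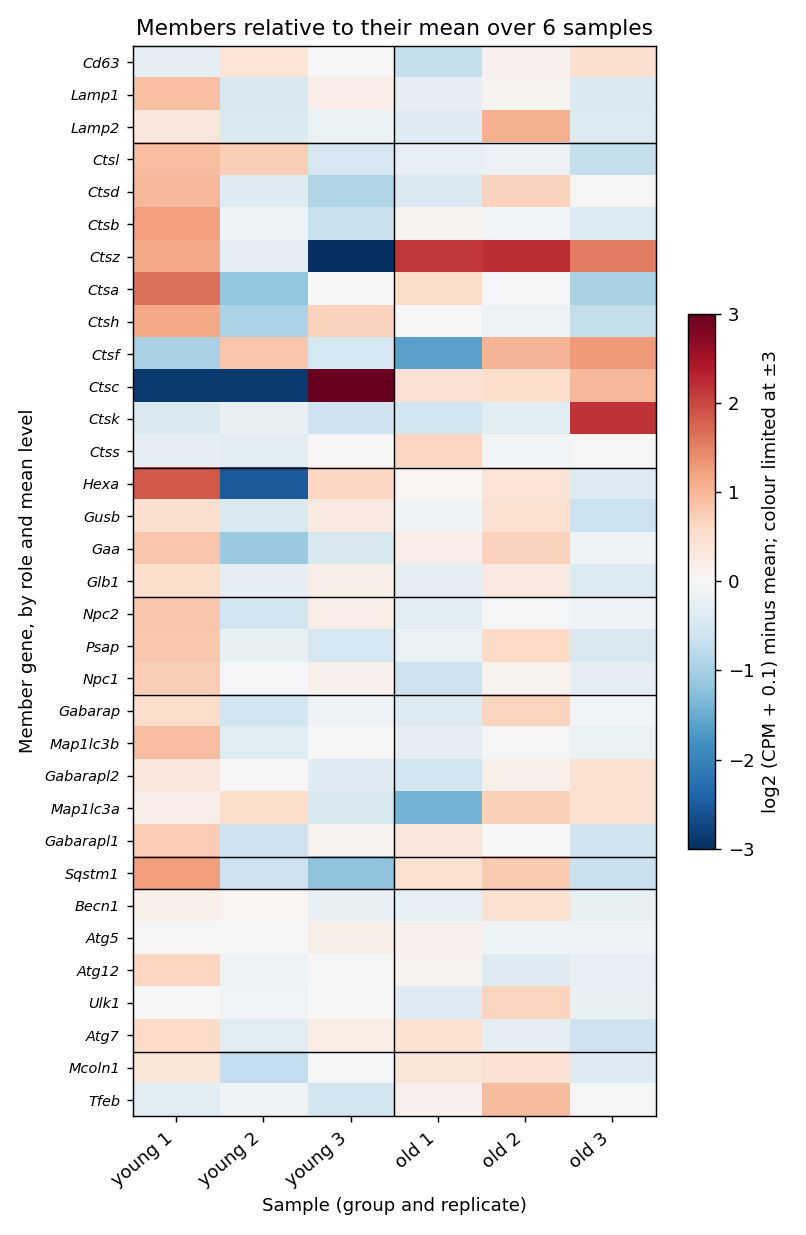
Level of each of the 33 members (rows, by role and then mean level) in each of the 6 populations (columns), as log2(CPM + 0.1) minus the mean of the gene over the samples, with colour limited at ±3. Young 1 is the reddest column for 5 of 10 cathepsins and for all glycosidases and lipid genes, and Ctsz, Ctsc and Hexa have the darkest cells.

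The design sets populations of old donors against those of young donors. None of the 33 members passed the test between the groups, which says little about whether they differ. The fit had 3 residual degrees of freedom, the standard errors of the members ran from 0.19 to 3.44 on the log2 scale, and even the estimate of 2.49 for Ctsz did not pass. All 33 passed the filter on low counts and entered the fit of 14512 genes with edgeR's quasi-likelihood test, and neither an adjusted nor an unadjusted p under 0.05 was reached by a member. In the same fit 0.00689% of all genes (1 gene) passed an adjusted p of 0.05, and 3.53% had an unadjusted p under it. DESeq2 called 1.78% of 15152 genes and no member. The members' log2 fold changes, old over young, had a median of -0.08, and 15 of 33 were positive. The median over all genes was -0.01. The median of the members turned to 0.18 on the 4 samples of the longer gene list alone. Leaving out young population 1 or old population 1 gives that same estimate, because the other sample of the shorter list is then taken up by the gene-list term.

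Ctsz and Tfeb were the only members whose old and young samples did not overlap, and both were higher in the old. That is 6.06% of the 33 members. Among all genes 6.05% did not overlap in either direction, 3.63% with the old samples higher and 2.42% with the old samples lower, so the members' share lay near the background. Ctsz, which encodes a carboxypeptidase also known as cathepsin X, was at 76.7, 29.0 and 0.225 CPM among the young populations against 152, 163 and 104 CPM among the old. The lowest old sample was above the highest young sample, but the young samples spread far more widely than the gap. The log2 fold change was 2.49 (SE 1.55, n = 3 per group), with an unadjusted p of 0.163 by edgeR and 1.66 without young population 3. Tfeb was at 2.08, 2.48 and 1.78 CPM among the young populations against 2.92, 5.28 and 2.55 CPM in the old populations. Old population 2 was the highest, and the nearest samples of the groups lay close to each other. The separation of Tfeb depended on the setting. Without TMM scaling, old population 3 at 2.40 CPM fell below young population 2 at 2.47 CPM. In cells not scored in S or G2/M, old population 1 at 1.90 CPM fell below young population 2 at 2.70 CPM. The log2 fold change of Tfeb was 0.75 (SE 0.48, n = 3 per group), with an unadjusted p of 0.175 by edgeR, and 0.35 without old population 2. With fewer samples, more genes of any kind do not overlap. Without young population 2 it was 8 members (24.2%) beside 14.9% of all genes, and without old population 2 it was 6 (18.2%) beside 12.1%. Without young population 3 it was 5 (15.2%) beside 11.3%, and without old population 1 it was 5 (15.2%) beside 21.9%. Without young population 1 it was 3 (9.09%) beside 21.5%, and without old population 3 it was 2 (6.06%) beside 12.3%.

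By edgeR, the lowest unadjusted p among the members was that of Ctsl, and by DESeq2 that of Ctsz (unadjusted p = 0.0559 by DESeq2). The log2 fold change of Ctsl was -0.83 (SE 0.39, n = 3 per group) with an unadjusted p of 0.0807 by edgeR. Leaving out single populations moved it between -1.16 and -0.48. In the autophagy core, the log2 fold change was 0.02 (SE 0.28) for Becn1, -0.08 (SE 0.20) for Atg5, 0.10 (SE 0.34) for Ulk1, -0.32 (SE 0.28) for Atg7 and -0.34 (SE 0.19) for Atg12. Mcoln1 was at 0.29 (SE 0.36).

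**Figure D2:**
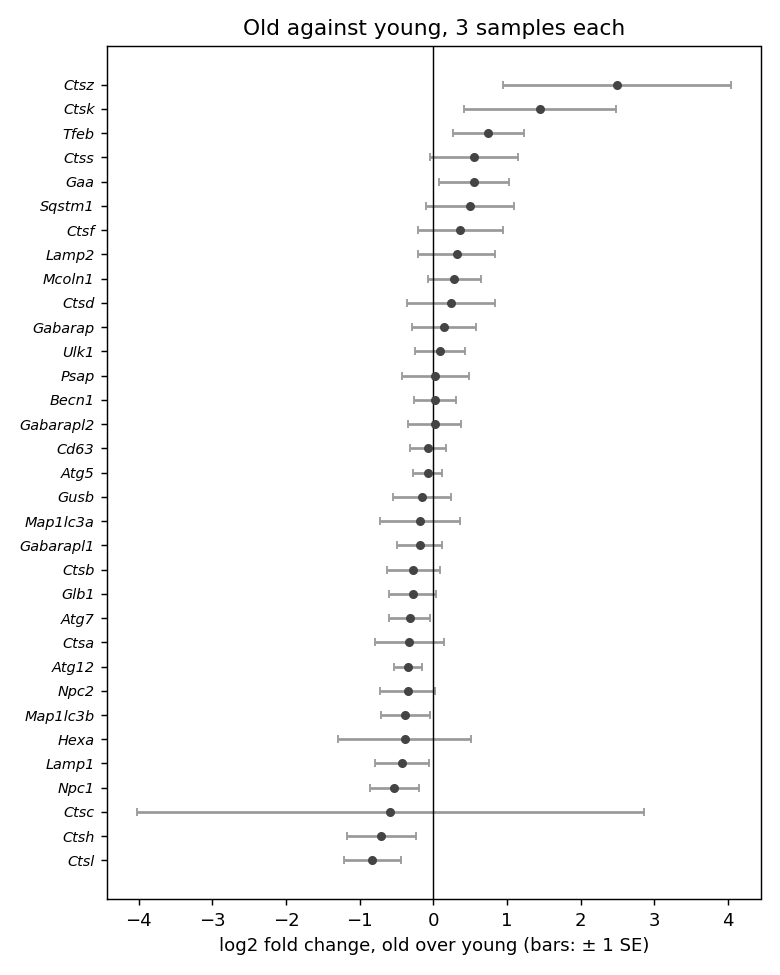
Fitted log2 fold change, old over young, for each member, with bars of 1 standard error on each side (edgeR, 3 populations per group). The estimates run from -0.83 for Ctsl to 2.49 for Ctsz, no member passed the test, and the bar of Ctsc is the longest because it was at 0 UMIs in 2 young populations.

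Of the members, 6 followed a single population, among them Ctsz, which also did not overlap between the groups. A gene was taken to follow a single population where that population's level was at least 2 times the highest, or at most 1/2 of the lowest, of the other 5. This is a description with no test. The 6 members make 18.2% of 33, below the 22.6% of all genes tested that met the rule, 12.6% on the high and 14.4% on the low side. Among genes with a mean of 10 CPM or more, it was 4 of 26 members (15.4%) and 8.05% of all genes. Just inside the rule were Ctsa (2.15-fold) and Ctsb (2.18-fold), and just outside it Map1lc3a (1.91-fold below, in old population 1) and Map1lc3b (1.89-fold above, in young population 1).

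Ctsz (chr2:174427493-174439039, minus strand) was low in young population 3, with 46 UMIs in 10780 cells against 5585 to 30277 UMIs in the other samples. Its level there was 128.8-fold below the next lowest sample, young population 2. Neighbours, here and below, are the nearest genes on the chromosome among those tested, and untested genes may lie between. Of its neighbours, Nelfcd, which lies on the opposite strand and overlaps the end of Ctsz by a few bases, was highest there at 30.7 CPM against 19.3 to 28.7 CPM in the other 5, and Prelid3b was at 70.8 CPM against 67.0 to 90.6 CPM. Atp5e, next to the start of Ctsz, was lowest in young population 3 at 423 CPM against 521.5 to 1916 CPM, and Gnas was lowest there at 726 CPM against 856 to 1412 CPM. Neither gap came near that of Ctsz.

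Hexa (chr9:59539540-59565109, plus strand) departed in both directions. It was at 178, 8.54 and 76.1 CPM among the young populations against 51.9, 64.2 and 37.7 CPM in the old populations. Young population 1 was 2.34-fold above the next and young population 2 was 4.41-fold below the next. The old samples lay between those extremes. Of its neighbours, Arih1 ranged from 69.4 to 93.3 CPM and Parp6 from 5.82 to 7.05 CPM over the 6 samples. Pkm was also highest in young population 1 at 1865 CPM and lowest in young population 2 at 1078 CPM, a smaller range than that of Hexa. Tmem202, which overlaps the start of Hexa, was at 5.86, 0.239 and 0.650 CPM and 1.36, 1.04 and 1.17 CPM, with the same highest and lowest populations. Whether the overlap bears on the counts of these genes was not tested.

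Ctsc (chr7:88278085-88310888, plus strand) encodes the dipeptidyl peptidase that activates granule proteases. It was at 10.2 CPM (2078 UMIs) in young population 3 and at 0 UMIs in young populations 1 and 2. The old populations held 149, 179 and 235 UMIs, or 0.888, 0.965 and 1.36 CPM. Young population 3 was 7.46-fold above the next. Against the 3 UMIs that a count of 0 allows per library, it was at least 384-fold higher than young population 1 and at least 653-fold higher than young population 2, for counting error only. Of its 6 nearest neighbours among the genes tested, Rab38 at 3.02 CPM, Nox4 at 9.92 CPM and Fzd4 at 6.34 CPM were also highest in young population 3. Tmem135, Vmn2r78 and Vmn2r79 were not. Nox4 ends at base 87398710 and Fzd4 starts at base 89404355, so they do not adjoin Ctsc.

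Ctsk (chr3:95499256-95509362, plus strand), the collagen-degrading protease of osteoclasts, was at 1.96 CPM (338 UMIs) in old population 3. The other 5 samples held 27 to 56 UMIs, or 0.201 to 0.291 CPM, which makes old population 3 6.74-fold above the next. Its neighbour Ctss was at 0.215 CPM there. Ctsa, which encodes cathepsin A, a protease that also protects other lysosomal enzymes, was at 204, 29.0 and 64.2 CPM among the young populations against 95.1, 63.8 and 33.2 CPM in the old populations. Ctsa and Ctsb followed young population 1 on the TMM scale and on a scale centred by chromosome, but were 1.64-fold and 1.67-fold above the next sample without TMM scaling and then no longer met the rule, while Lamp2 met it in old population 2 (2.05-fold above the next). In cells not scored in S or G2/M, Ctsa and Ctsb also fell short, and Map1lc3a (2.04-fold below the next, in old population 1), Tfeb (2.09-fold above, in old population 2) and Ctss (2.63-fold above, in old population 1) met the rule. Of the 6, Ctsz, Hexa (on its low side), Ctsc and Ctsk met the rule under all 4 of these settings and at 3-fold.

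**Figure D3:**
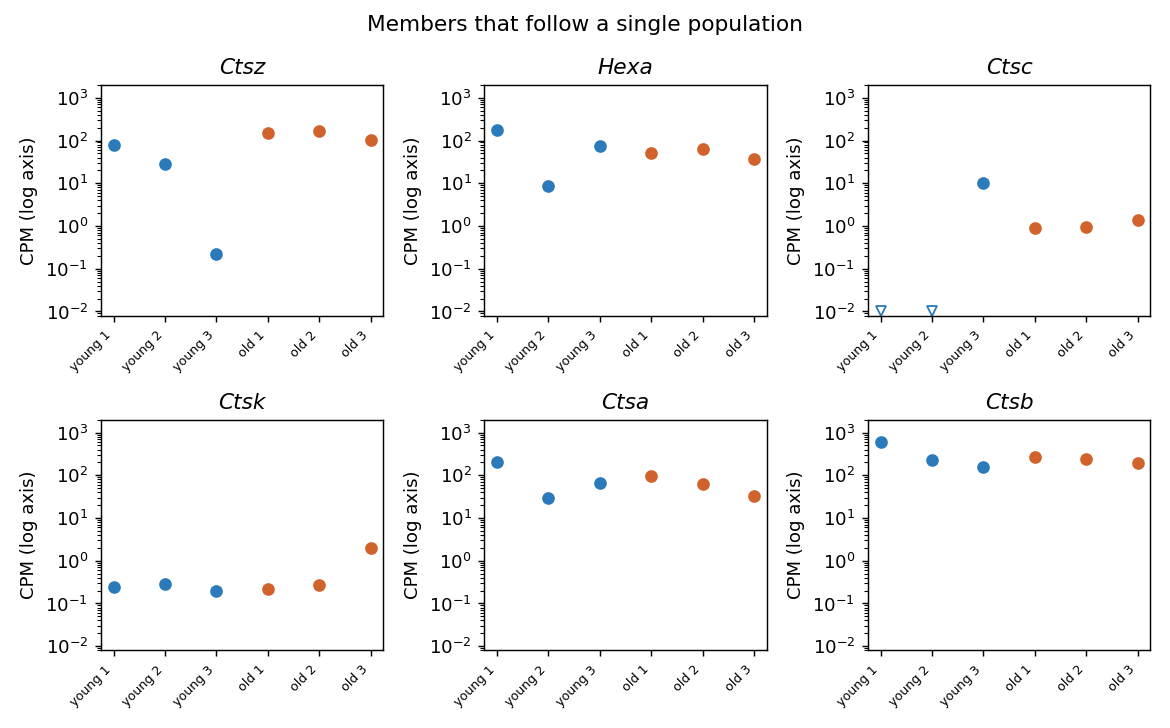
CPM on a log axis of the 6 members that followed a single population, 1 point per population (blue young, orange old), with open triangles at the floor of the axis for 0 UMIs. Ctsz drops in young 3, Hexa in young 2, Ctsc rises in young 3 and Ctsk in old 3, while Ctsa and Ctsb are highest in young 1.

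The members were not spread evenly over the populations. Young population 1 held the highest level of 18 of the 33 (54.5%) and old population 2 of 8 (24.2%). Over all genes tested, the highest level fell to young population 1 in 16.4%, young 2 in 16.9%, young 3 in 16.9%, old 1 in 17.2%, old 2 in 18.2% and old 3 in 14.3%. No member was highest in young population 2, which was lowest for 12. These orders describe 6 populations and were not tested.

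For the 26 members with a mean of 10 CPM or more, the level in each population was set against the median of the other 5. The median log2 difference was 0.79 in young population 1, -0.36 in young 2, 0.04 in young 3, -0.27 in old 1, 0.32 in old 2 and -0.27 in old 3. Over all 7960 genes of that level the same medians lay between -0.08 and 0.03. In young population 1, 23 of the 26 lay above the median of the others. The scaling bears on the size: without TMM factors the members' median in young population 1 was 0.55, that of all genes -0.25, and 12 of 33 members (36.4%) were highest there beside 6.505% of all genes, with 11 (33.3%) in old population 2 beside 21.2%. In cells not scored in S or G2/M the members' median was 0.76 and 17 of 33 were highest in young population 1. After centring by chromosome, 20 of 33 were, and old population 2 was highest for 5. The shifts of old population 2 were largest on chromosomes X (0.87, log2), 13 (0.41), 11 (0.40) and 5 (0.31). Lamp2 on X and Gabarap and Becn1 on chromosome 11 were highest in old population 2 before centring and in a young population after it.

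The summed macrophage markers, mostly Cd14, were highest in young population 1 at 32.2 CPM, followed by old population 1 at 28.7 CPM and young population 3 at 25.8 CPM. The members' medians in these 3 populations were 0.79, -0.27 and 0.04. Cd68, a lysosomal glycoprotein used as a macrophage marker, was at 8.65 CPM in young population 1 and 1.09 to 4.25 CPM in the others. Lyz2 was at 0.609 CPM in young population 1 and under 0.2 CPM in the others. These were the 2 of the 12 markers that were highest in young population 1. Cd14 was highest in young population 3 (23.5 CPM against 21.5 CPM in young population 1), Csf1r in young population 2 (3.15 against 0.415 CPM), Fcer1g in old population 1 (2.35 against 0.989 CPM) and Laptm5 in old population 2 (1.19 against 0.0265 CPM). Their part in the members' levels was not tested. Old population 1, counted on the same shorter gene list, was highest for 1 member. The part of the gene list in the levels of young population 1 was not tested.

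Related genes that are not members, 122 in 8 lists, were looked at in the same way. Young population 1 was highest for 59 of the 122 and old population 2 for 36, and the lists differed. Of 31 other lysosomal hydrolases, 23 were highest in young population 1 and 17 lowest in young population 2. Asah1, acid ceramidase, was at 173, 70.3 and 117 CPM among the young populations against 56.5, 80.5 and 70.0 CPM in the old populations. Tpp1, tripeptidyl peptidase, was at 187, 50.8 and 93.9 CPM and 94.5, 88.8 and 48.1 CPM. For the 19 hydrolases with a mean of 10 CPM or more, the median log2 difference from the other populations was 1.08 in young population 1 and -0.87 in young population 2 and in old population 3. Of the 15 subunits and accessory proteins of the V-ATPase, 11 were highest in young population 1, with a median of 0.75, and all 15 lay above the median of the others there and in old population 2, where the median was 0.63. Young population 1 was also highest for 5 of 6 genes of mannose-6-phosphate sorting and for all 3 cathepsin inhibitors. Other lists did not share this order. Old population 2 was highest for 7 of 15 other lysosomal membrane proteins against 5 in young population 1, for 5 of 10 other autophagy receptors against 4, for 7 of 23 other genes of the autophagy core against 3, and for 5 of 19 genes of nutrient sensing, as many as young population 1. The related genes named with values here and in the contrasts within populations were chosen after their values were seen. None of the 122 passed the test between old and young, and none had an unadjusted p under 0.05 by edgeR.

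**Figure D4:**
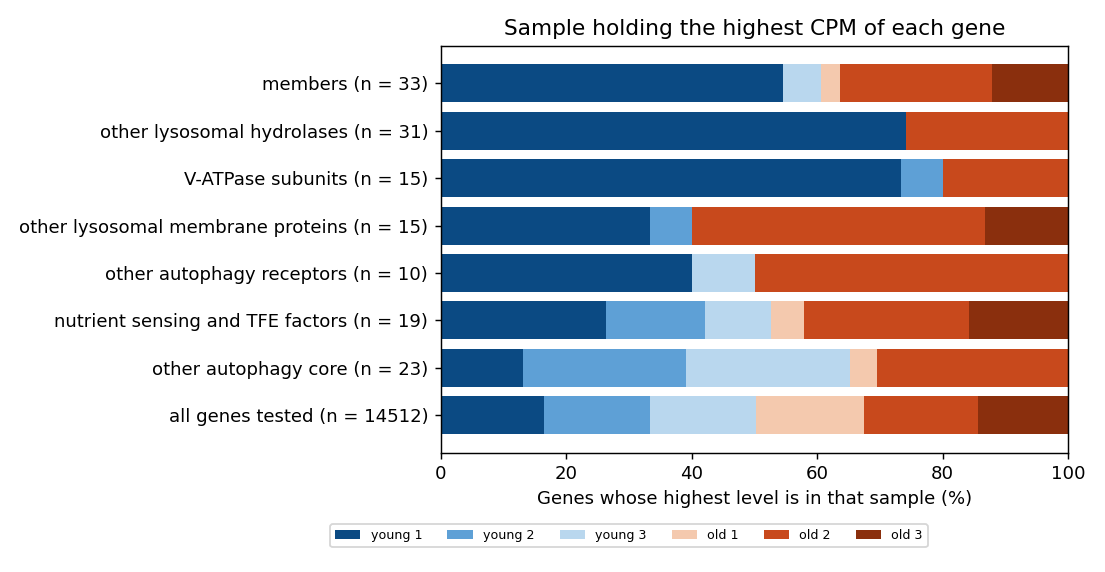
Share of the genes of each list (bars, with the number of genes) whose highest CPM was in each of the 6 populations (colours). Young 1 takes 54.5% of the members and 16.4% of all 14512 genes tested, while the other autophagy core genes are spread more evenly.

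Within each population, cells scored in S or G2/M phase were compared with the other cells, after each cell had been thinned to 5000 UMIs. The phase scores use 42 S-phase and 52 G2/M genes and none of the members. Among young populations 1 to 3, 47.5%, 56.2% and 86.0% of cells were scored so, among the old ones 79.5%, 33.3% and 61.7%, and the scored cells had 1.10 to 1.35 times the median UMIs of the others before thinning. Lysosome and autophagy genes were lower in the scored cells. Of 32 members tested, 23 were lower and 0 higher (edgeR, adjusted p under 0.05, sample as block), or 71.9% lower, and all 32 estimates were negative. Of 13485 genes tested, 26.5% were lower, 20.9% higher and 47.5% either. The median log2 difference was -0.32 over the members and -0.05 over all genes. Per population, the members' median ran from -0.39 in young population 1 to -0.25 in young population 2.

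The fall was steepest for Ctsf, a cysteine protease, at -1.05 (SE 0.16) on the log2 scale. Its level in scored cells was 0.844, 3.46 and 2.09 CPM among the young populations against 0.946, 2.86 and 6.73 CPM in the old populations. In the other cells it was 2.18, 8.19 and 3.38 CPM and 1.34, 9.34 and 11.0 CPM, higher in all 6. Map1lc3a followed, at -0.77 (SE 0.06), and had the most precise estimate of those beyond -0.7. Its scored cells held 120, 154 and 101 CPM among the young populations against 50.8, 176 and 169 CPM in the old populations. Its other cells held 200, 337 and 167 CPM and 76.3, 286 and 277 CPM, so the scored cells were lower in 6 of 6 populations.

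Gaa was lower by 0.71 (log2, SE 0.08), from a mean of 48.6 CPM (SD 19.4, n = 6) to 29.7 CPM (SD 11.9, n = 6). Ctsd fell by 0.62 (SE 0.05), from 704, 276 and 217 CPM to 427, 199 and 159 CPM among the young populations against from 332, 572 and 361 CPM to 203, 316 and 257 CPM among the old. Hexa fell by 0.55 (SE 0.05), from a mean of 84.3 CPM (SD 63.7, n = 6) to 60.2 CPM (SD 50.3, n = 6), and in young population 2 from 11.6 to 7.36 CPM. Npc1 fell by 0.51 (SE 0.06), from a mean of 26.5 CPM (SD 8.54, n = 6) to 18.4 CPM (SD 5.12, n = 6). All 6 of these were lower in 6 of 6 populations.

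By role, all 5 ATG8 genes were lower, from -0.77 for Map1lc3a to -0.24 for Gabarapl2, as were all 3 membrane glycoproteins and all 3 genes of lipid handling. Of the cathepsins, 7 of 9 tested were lower, and of the glycosidases 2 of 4, Gaa and Hexa. Of the autophagy core, Atg12 and Becn1 were lower, and Atg5, Atg7 and Ulk1 did not pass the test. Tfeb (-0.09, SE 0.17), Mcoln1 (-0.11, SE 0.10), Gusb, Glb1, Ctsk and Ctsc did not pass either, and Ctss was too scarce to be tested. The call of Ctsl was lost without young population 1, without young population 3, without old population 1 and with no filter on low counts (highest adjusted p = 0.123 by edgeR). That of Becn1 was lost without young population 2 (adjusted p = 0.0608 by edgeR). The other 21 calls held in all 11 alternatives.

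Many related genes were also lower in these cells. All 15 V-ATPase genes were lower, from -0.68 for Atp6v1e1 to -0.23 for Atp6v0b. Of 31 other hydrolases, 20 were lower and 1, Arsb (arylsulfatase B), was higher at 0.22 (SE 0.06). Of 23 other core autophagy genes 16 were lower, of 10 other receptors 6, of 15 other lysosomal membrane proteins 10 and of 19 genes of nutrient sensing 12, with none higher. All 3 cathepsin inhibitors were lower. Mannose-6-phosphate sorting stood nearer to all genes, with 2 of 6 lower, 0 higher and a median of -0.05. Calcoco1, a receptor for autophagy of the endoplasmic reticulum, had the lowest estimate of the receptors, at -1.07 (SE 0.10). Ctns, the cystine exporter of the lysosome, had that of the membrane proteins, at -0.88 (SE 0.09). Myogenic markers moved with this contrast: 8 of 10 were lower in the scored cells, with a median of -1.31, and their part in the members' differences was not tested.

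Differentiating cells were set apart by Myog, the transcription factor myogenin. Among cells not scored in S or G2/M, those with 2 or more Myog UMIs of 5000 were compared with those with 0, in the 5 populations that had 50 or more of both. Old population 1 had 32 such Myog-positive cells and was left out. The others had 183, 1105 and 96 among the young populations and 806 and 2325 in old populations 2 and 3. Here calls fell in both directions, among the members as among all genes. Of 31 members tested, 2 were higher and 9 lower (6.45% and 29.0%), with a median of -0.17. Of 12170 genes, 14.9% were higher, 19.0% lower and 33.9% either, with a median of -0.08. In some settings given below, the share of members lower fell under that of all genes.

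Map1lc3a was higher in the Myog-positive cells by 0.79 (log2, SE 0.11; edgeR adjusted p = 0.000407), in 5 of 5 populations. Its Myog-positive cells held 310, 577 and 216 CPM among the young populations against 445 and 337 CPM in old populations 2 and 3. Its Myog-negative cells held 189, 248 and 158 CPM and 242 and 214 CPM. Ctsd was higher by 0.33 (SE 0.09), at a mean of 496 CPM (SD 233, n = 5) against 401 CPM (SD 198, n = 5). No other ATG8 gene was called higher. Map1lc3b was lower, at -0.24 (SE 0.09). Gabarapl1 was at -0.40 (SE 0.13), with 17.7 CPM (SD 6.52, n = 5) in positive and 23.9 CPM (SD 8.54, n = 5) in negative cells. Gabarapl2 was at 0.16 (SE 0.08), higher in the positive cells of 5 of 5 populations, and Gabarap at -0.10 (SE 0.09). Neither Gabarapl2 nor Gabarap passed the test. The calls of Map1lc3b and Gabarapl1 each held in 4 of 11 alternatives, with adjusted p up to 0.269 and 0.359 by edgeR over all kept cells.

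Ctsh, a cysteine protease with aminopeptidase activity, was lower, at -0.94 (SE 0.22), with 47.0, 24.5 and 55.3 CPM in Myog-positive cells of the young and 33.6 and 13.8 CPM in those of old populations 2 and 3. The Myog-negative cells held 122, 27.6 and 113 CPM and 48.2 and 44.4 CPM, so young population 2 showed little of it. Gusb was lower, at -0.81 (SE 0.16), with a mean of 28.9 CPM (SD 14.6, n = 5) in positive and 49.7 CPM (SD 16.9, n = 5) in negative cells, and Sqstm1 at -0.74 (SE 0.14). For Sqstm1 the positive cells held 270, 159 and 95.8 CPM and 322 and 134 CPM, below the 693, 194 and 155 CPM and 463 and 245 CPM of the negative cells in every population. Ctsl was lower, at -0.70 (SE 0.17), with 718 CPM (SD 332, n = 5) in positive and 1178 CPM (SD 558, n = 5) in negative cells. Ctsa was at -0.61 (SE 0.17), with 49.5 CPM (SD 23.7, n = 5) and 90.1 CPM (SD 77.2, n = 5). Npc2 was at -0.35 (SE 0.11) and Psap at -0.27 (SE 0.09). Tfeb was at 0.63 (SE 0.27) with an adjusted p of 0.0983 by edgeR.

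Calls of Map1lc3a, Ctsd, Gusb and Sqstm1 held in all 11 alternatives, and the other 7 were each lost in at least 1. Without young population 1, 4 members (12.9%) were lower beside 16.7% of all genes, and without old population 3 it was 3 (9.68%) beside 12.4%. Over all kept cells it was 4 (12.5%) beside 20.8%. In these 3 settings the share of members lower was below that of all genes, while in the cells not scored in S or G2/M of all 5 populations it was above. In young population 1 the Myog-positive cells had 0.787 times the median UMIs of the negative ones before thinning, and in young population 3 0.855 times, against 1.00 to 1.06 in the other 3.

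Around the members, 13 of 31 other hydrolases were lower in the Myog-positive cells and 0 higher. Gla, alpha-galactosidase A, was at -1.75 (SE 0.17). The V-ATPase had 4 of 15 genes higher and 0 lower, led by Atp6v1e1 at 0.48 (SE 0.08). Of 19 genes of nutrient sensing 4 were higher and 1 lower. Rragd, a Rag GTPase that takes part in the control of TFEB by mTORC1, was at 1.11 (SE 0.19), and Tfe3 at -1.11 (SE 0.20). Sort1, the sorting receptor sortilin, was at 1.06 (SE 0.25). Bnip3, a receptor for mitophagy, was at 0.68 (SE 0.12), and Atg9a, the membrane-spanning scramblase of autophagy, at 0.72 (SE 0.16). Markers of other cells moved with this contrast too: of the 3 macrophage markers tested 2 were lower, and of the 4 fibro-adipogenic markers 2 were lower. Their part in the members' differences was not tested.

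**Figure D5:**
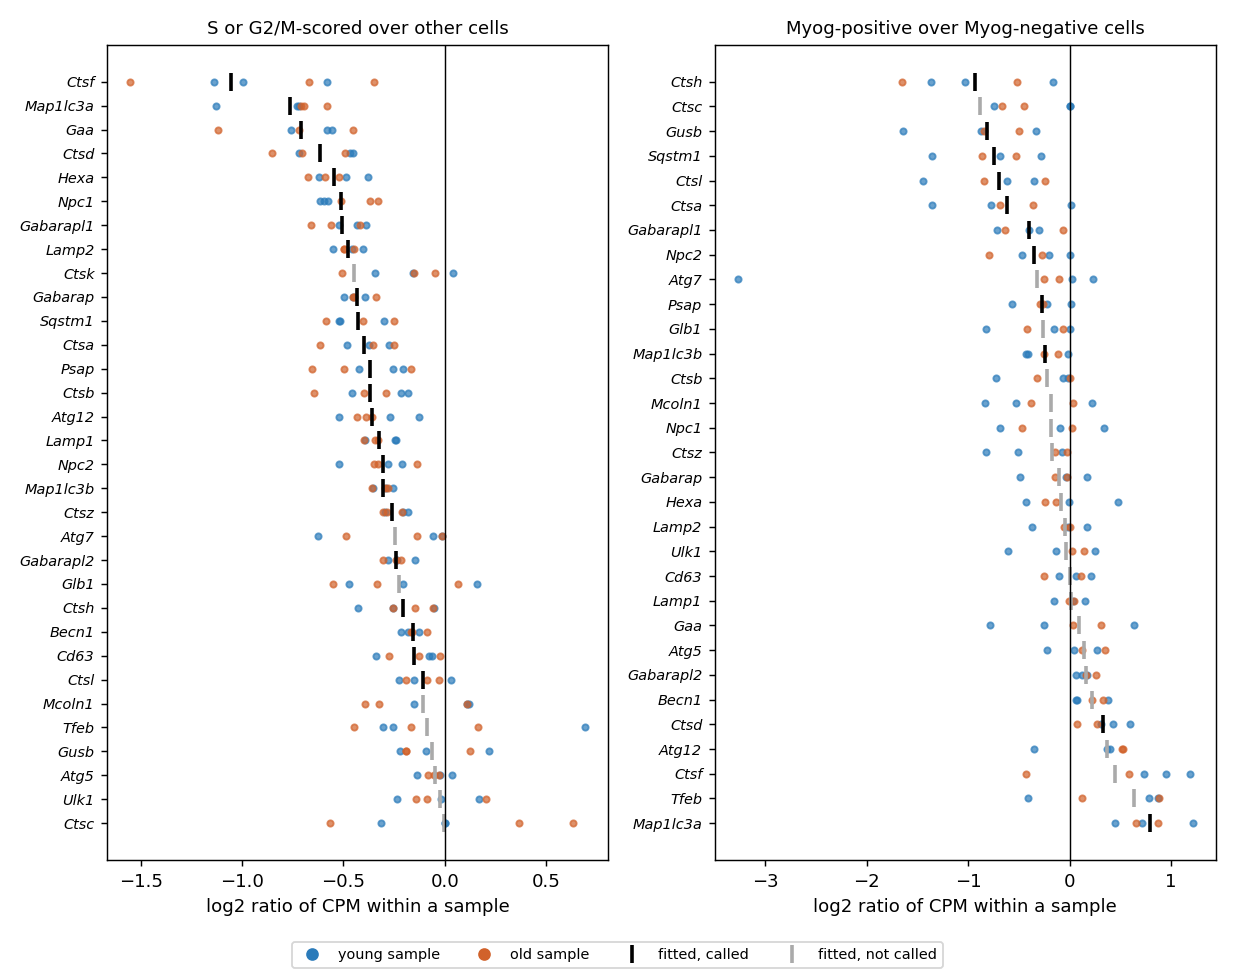
Log2 ratio within each population (points, blue young and orange old, with 0.5 CPM added to both levels) of S or G2/M-scored over other cells (left, 6 populations) and of Myog-positive over Myog-negative cells (right, 5 populations), with the fitted value as a black bar where called and a grey bar where not. On the left all fitted values lie below 0, and on the right Map1lc3a and Ctsd are the members called above 0.

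Neither within-population difference was shown to depend on the age of the donor. An interaction term with age called 0 of 13485 genes for the cycle contrast and 13 of 12170 for the Myog contrast, all lower in the old. No member was among them, and no member had an unadjusted p under 0.05 for either term by edgeR. With 3 young and 2 or 3 old populations, smaller differences between the groups may go undetected.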

How the data were processed

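Single-cell RNA libraries of 6 mouse MDSPC populations (3 young, 3 old) were analysed from the deposited filtered matrices of whole UMI counts per gene and barcode. Per the file headers, young population 1 and old population 1 were made with Cell Ranger 7.0.0 on 21849 features and the other 4 with 7.2.0 on 32285. The submitters' processing notes name Cell Ranger 7.2.0 and build mm10. The members and all gene lists were chosen with earlier results of these data known.

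Barcodes with under 1000 UMIs or under 500 genes (967) or at least 15% mitochondrial UMIs (209 more) were dropped, no doublets or free RNA were removed, and the 21485 shared gene identifiers were kept, which hold 98.5% to 99.9% of the UMIs. Counts were summed per population (133974782 to 196481316 UMIs deposited) and fitted with edgeR 4.0.16 (TMM, filterByExpr, robust quasi-likelihood test, Benjamini-Hochberg over all genes tested) with the gene list as a term, in R 4.3.3. This left 3 residual degrees of freedom. A threshold of 0.05 was used. Nothing says how many animals a population came from, so p-values measure the spread between these samples. For the contrasts within samples, cells were thinned to 5000 UMIs (1368 shallower cells left out), scored for phase with scanpy 1.11.5, summed per class and fitted with the sample as a block. Alternatives were DESeq2 1.42.0, no filter, no gene-list term, the longer list alone, other class rules, no thinning, each population left out, and the replicate block. Intervals and floors cover counting error only. Values in every sample were given for members that did not overlap between groups or followed a single population, the 8 members of highest mean CPM and the ATG8 family, and in the contrasts within samples for the 6 called members of largest change in each direction, as values or as mean and SD. Related genes were to be named between old and young where groups did not overlap at an unadjusted p under 0.05, which none met. Scripts were tested on simulated data.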

Additional observations from a re-analysis of the deposited data

Results flagged for a closer look

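Of 63 groups of 5 or 6 samples looked at, 3 held a sample far from the others by Dixon's criterion, and chance gives about 1 in 20. For Map1lc3a, the log2 ratio of S or G2/M-scored over other cells was -1.126 in young population 2 and -0.7304 in the nearest other population. For Atg7, the log2 ratio of Myog-positive over Myog-negative cells was -3.271 in young population 1 and -0.2531 in the nearest, and it rests on 1 UMI in 183 Myog-positive cells against 298 UMIs in the Myog-negative cells. For Atg12, the same ratio was -0.3532 in young population 3 and 0.3715 in the nearest, from 15 UMIs in 96 Myog-positive cells against 276 in the Myog-negative cells. Neither Atg7 nor Atg12 passed the test in that contrast.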

How the results depend on the processing

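In the old against young comparison, DESeq2 called 226 genes higher and 44 lower, and 0 genes were called higher without the gene-list term or on the longer list alone, with 0 to 3 when a population was left out. Members without overlap numbered 9 (27.3%) on the longer list alone, beside 40.3% of all genes, and 2 to 8 with a population left out, where 11.3% to 21.9% of all genes did not overlap. Replicate numbers did not pair all samples, with correlations of same-numbered samples of 0.38, 0.22 and -0.08. Young population 1 with old population 1 was the highest of all pairs, and both were counted on the shorter gene list. Young population 2 correlated more with old population 3 (0.28), and young population 3 more with old population 1 (0.09). With the replicate block 1 gene was higher, 0 lower and no member was called, with Ctsc at 5.43 and Psap at -0.035 (log2). For the fold changes, leaving out young population 1 or old population 1 amounts to the longer list alone and is no separate check. No member passed the test under any of these settings, but estimates near 0 changed sign. Without the gene-list term Psap was at -0.084 and Map1lc3a at 0.047. On the longer list alone Cd63 was at 0.097, Ctsa 0.056, Ctsb 0.147, Hexa 0.265, Gusb 0.062, Npc2 0.055, Map1lc3a 0.493 and Map1lc3b 0.034. With a population left out, the log2 fold change ran from -0.24 to 0.10 for Cd63, -0.75 to 0.06 for Ctsa, -0.55 to 0.15 for Ctsb, -1.13 to 0.55 for Hexa, -0.60 to 0.063 for Gusb, -0.69 to 0.06 for Npc2, -0.67 to 0.49 for Map1lc3a, -0.63 to 0.03 for Map1lc3b, -0.47 to 0.53 for Psap, -0.25 to 0.66 for Gabarap, -0.24 to 0.47 for Gabarapl2, -0.28 to 0.33 for Ulk1, -2.13 to 10.46 for Ctsc, -0.22 to 1.01 for Ctsd, -0.11 to 0.87 for Ctsf, -0.42 to 0.0070 for Gabarapl1, -0.26 to 0.23 for Becn1, -0.20 to 0.021 for Atg5, -0.37 to 0.82 for Lamp2, -0.21 to 1.12 for Sqstm1, -0.025 to 0.47 for Mcoln1 and -0.0038 to 2.18 for Ctsk. For S or G2/M-scored cells, unthinned sums called 1 member higher, Ctss, which was too scarce for the main fit. The main fit called 0 members and 20.9% of all genes higher. For unthinned sums the share of all genes called higher is not given here. In unthinned sums Ctsc was at 0.102 and Tfeb at 0.0123, and neither was called. Ctsc was at 0.000926 with no filter and 0.0227 by DESeq2. With classes by Mki67 and Top2a, Ulk1 was at 0.0031 and Mcoln1 at 0.0068. With a population left out, Ulk1 ran from -0.063 to 0.020, Ctsc from -0.21 to 0.25 and Tfeb from -0.25 to 0.021. For Myog-positive cells, genes called higher numbered 1199 to 1741, genes called lower 1459 to 2009 and members called lower 3 to 7 (9.68% to 22.6%, beside 12.4% to 16.7% of all genes) with a population left out. The main fit called 2 members (6.45%) higher, beside 14.9% of all genes. DESeq2 and unthinned sums each called 4 of 32 members higher. The share of all genes called higher in those fits is not given here, so these counts have no background. Besides Map1lc3a and Ctsd, the members Atg12, Ctsf, Tfeb and Gabarapl2 were each called higher in at least 1 alternative. Over all kept cells 4 members (12.5%, beside 20.8% of all genes) were lower, with Lamp2 at 0.054, Hexa 0.106, Npc1 0.018 and Gabarap 0.057. Lamp1 was at -0.0041 and Cd63 at -0.0107 with no filter, Cd63 at -0.0054 in unthinned sums and Ulk1 at 0.0044 with 1 or more Myog UMIs. With a population left out, Lamp2 ran from -0.10 to 0.027, Ulk1 from -0.10 to 0.031, Lamp1 from -0.016 to 0.06, Cd63 from -0.029 to 0.075 and Gaa from -0.055 to 0.22. The causes were not tested. Ctss, Ctsk and Ctsc rest on few UMIs, which limits their estimates.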
